A study of Caenorhabditis elegans with 4 samples.

Results

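Cuticle collagens are the structural proteins of the nematode cuticle, the outer coat that Caenorhabditis elegans builds and sheds at each moult. The genes were taken by their WormBase names: every numbered col gene, and the rol, sqt, bli and dpy genes that encode collagens and are named for the body shapes (roller, squat, blistered and dumpy) of their mutants. Of 175 names that fitted this rule in the reference tables, 174 had a row among the 20392 genes of the count table, 156 named col and 18 named dpy, rol, sqt or bli. The remaining one, bli-6, was not analysed here. Total RNA was sequenced from whole first-stage (L1) larvae, in 2 wild-type libraries (strain GW1 / N2, Bristol) and 2 lsm-8 mutant libraries (strain GW1125). The mutant strain carries the lsm-8 allele xe17, which holds a myo2p::mcherry::unc54 3'UTR marker, over the green balancer nT1[qIs51], a translocation between chromosomes IV and V, and its labels give the sorted larvae as homozygous. Eggs of both genotypes were left to hatch for 16 h in buffer without food. Larvae of L1 size without a green pharynx were then sorted in the same way for both genotypes and fed for 2.5 h before lysis. LSM-8 is the subunit particular to the nuclear LSM2-8 ring, and the study asked which RNAs depend on it.

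Cuticle collagens are made by the epidermis as chains with a repeated glycine motif, hydroxylated on prolines, folded into trimers, trimmed by proteases, secreted and crosslinked. Each larval stage makes its own cuticle, and the transcripts of different collagens rise and fall in waves within each stage, so a given moment shows only part of the family at high levels. Several members are known from one life stage, and a subset builds the annular furrows, the ring-shaped grooves around the body.

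The libraries held 54419838 and 50755251 counts in wild type and 101230177 and 90749329 counts in the mutant, so the mutant values of rare transcripts rest on more reads. Libraries are numbered 1 and 2 as in their titles, and pairs of values follow that order. The targeted gene lsm-8 was lower in both mutant libraries, at 3.25 and 3.73 CPM (counts scaled to the TMM library size) against 15.4 and 15.9 CPM in wild type. Whether the 2 libraries of a genotype came from separate cultures is not stated, so p-values measure the spread between these libraries, which may be technical. RNA came from whole larvae, so fewer epidermal cells and less collagen RNA per cell cannot be told apart.

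Collagen transcripts were a small part of the RNA and were concentrated in few genes. All 174 members together took 0.279% and 0.252% of the counts in the wild-type libraries and 0.310% and 0.288% in the mutant libraries, with 95% Wilson intervals, for counting error only, of 0.277% to 0.280%, 0.250% to 0.253%, 0.309% to 0.311% and 0.287% to 0.289%. The mutant mean was 0.0334 percentage points higher, 0.299% ± 0.0156 against 0.265% ± 0.0191 (SD, n = 2 and 2), and the groups did not overlap. Taken as a share of the TMM library size, the values were 0.285% and 0.255% in wild type and 0.306% and 0.281% in the mutant, and the groups overlapped. The difference was 0.0199 percentage points without wild-type library 2 and 0.0224 without mutant library 1. With 2 against 2 an exact permutation test cannot give a two-sided p below 0.333, and the share was not tested. In every library 4 genes held the first 50% of the collagen counts, and 12 or 13 genes held 90%.

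The most abundant member per length was col-125 (WBGene00000699, chromosome IV), at 878 ± 176 RPKM in wild type (CPM per kilobase of deposited gene width) and 856 ± 84.0 RPKM in the mutant. Its levels were 947 and 712 CPM in wild type, against 865 and 752 CPM in the mutant. The wild-type libraries lay on either side of both mutant libraries, and the log2 ratio of mutant over wild type fitted by edgeR, -0.04 (SE 0.17, adjusted p = 0.907), was smaller than its error. The sign turned with the deposited log2 values, under scaling by library totals and without wild-type library 1 or mutant library 2, and without wild-type library 2 the gene was called lower (log2 ratio -0.23, adjusted p = 0.0308). This gene alone took 26.7% to 33.3% of the collagen counts of a library.

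The next 7 members in wild type were col-42 (191 ± 10.1 RPKM), col-98 (187 ± 11.8), col-166 (175 ± 7.13), col-107 (165 ± 14.1), col-160 (158 ± 8.12), col-39 (149 ± 0.458) and col-103 (140 ± 7.33). From col-42 to col-107, neighbours in this order differed by less than the sum of their SDs. For comparison, the basement membrane collagens emb-9 and let-2, which form type IV collagen and are not part of the cuticle, stood at 282 ± 27.7 and 329 ± 38.7 RPKM, below col-125 and above every other cuticle collagen. Most members were rare: 23 had a mean of at least 5 CPM over the 4 libraries, 34 had 1 to 5 CPM and 117 had under 1 CPM.

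**Figure D1:**
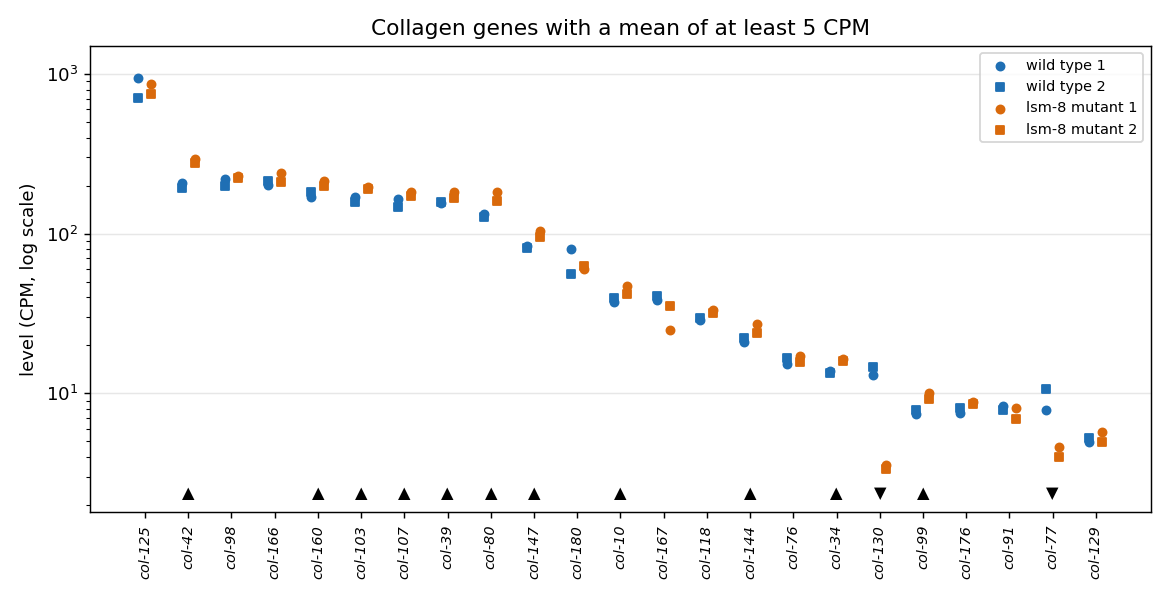
Levels in CPM (log axis) of the 23 collagen genes that averaged 5 CPM or more, ordered by that mean, with 1 point for each library (blue, wild type; orange, lsm-8 mutant; circles, replicate 1; squares, replicate 2). Triangles mark genes called higher (pointing up) or lower (pointing down) at an adjusted p under 0.05. The orange points lie slightly above the blue ones for most of the abundant genes, whereas col-130 and col-77 lie clearly below.

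Of the 174 members, 134 passed the filter on low counts and were tested with edgeR over the whole table of 16771 tested genes. At a Benjamini-Hochberg adjusted p under 0.05, 19 collagen genes were higher in the mutant, 12 were lower and 103 were not called. These counts are 14.2% and 8.96% of the members tested, against 13.5% of all tested genes called higher and 14.8% called lower, so the share of rises was near that of all genes. Over all genes this was 2258 higher and 2479 lower, and 2920 higher and 1907 lower under scaling by library totals, and 2902 and 1879 from the deposited log2 values. The median log2 fold change of the tested members was 0.07, against -0.01 over all tested genes. It was 0.0050 without mutant library 1, 0.1048 without wild-type library 2, 0.0376 with limma voom, 0.1036 with upper quartile scaling and 0.1191 under scaling by library totals. The number of rises was 11 with the replicate number as a block and 12 without wild-type library 2 or without mutant library 1.

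The called rises and falls differed in median size and in the level of the genes they touched. The 19 rises had a median log2 fold change of 0.39, and 11 of them were under 0.5. The 12 falls had a median of 1.09 log2 units, the smallest was 0.60 and 7 were at least 2-fold. The genes that rose had a median level of 14.8 CPM, and those that fell 1.48 CPM. Fitted errors were wider at low levels (SE 0.06 for col-42 and 0.24 for col-145), so small changes of rare genes could not be called. The largest rise, 2.65 log2 units, was about as large as the largest fall, 2.56. Whether size differs by direction at a like level was not tested. Among the 23 members of at least 5 CPM, 11 were higher and 2 lower, or 47.8% and 8.70%, against 18.6% higher and 20.4% lower among all tested genes of that level. The median log2 fold change of these 23 was 0.16, against -0.01. Among the 34 members of 1 to 5 CPM, 3 were higher and 8 lower, or 8.82% and 23.5%, against 10.6% and 13.2%. Below 1 CPM, 77 of 117 members were tested, and 5 were higher and 2 lower, against 3.81% and 3.27% of all tested genes of that level. These level bands were chosen after the values were seen, and the difference between bands was not tested. The count of 11 rises among the abundant members was 5 without wild-type library 1, 7 without wild-type library 2, 4 without mutant library 1 and 5 with the replicate block.

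**Figure D2:**
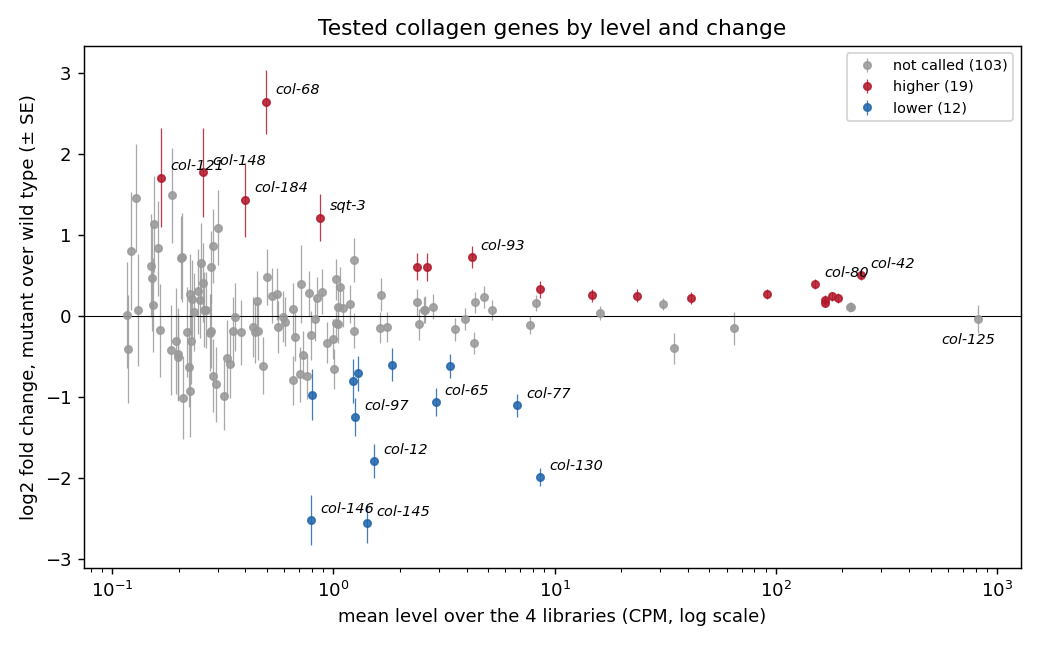
Log2 fold change of the 134 tested collagen genes (mutant over wild type, bars show SE) against their mean level in CPM over the 4 libraries (log axis), with genes called higher in red, lower in blue and not called in grey. The called genes of the highest levels are small rises, and all falls lie at or below 8.62 CPM.

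The largest rise among the abundant collagens was that of col-42 (WBGene00013489, chromosome V). Wild type gave 208 and 193 CPM, and the mutant gave 291 and 276 CPM. Both mutant libraries lay well above both wild-type libraries, a 1.41-fold rise (log2 ratio 0.50, SE 0.06, adjusted p = 2.76e-06). Next came col-80 on chromosome II, with 134 and 127 CPM in wild type and 182 and 160 CPM in the mutant (log2 ratio 0.39, SE 0.06, adjusted p = 0.000141). A smaller rise was found for col-147 on chromosome V, from 84.0 and 81.0 CPM to 103 and 95.7 CPM (0.27, SE 0.06, adjusted p = 0.00234). The calls of these 3 genes held in all 14 alternatives.

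A further 4 abundant members rose by less than these 3, and each lost its call in at least 1 alternative. Levels of col-103 went from 171 and 158 CPM to 197 and 191 CPM (log2 ratio 0.24, SE 0.06, adjusted p = 0.00391), a call lost without wild-type library 2 (adjusted p = 0.0813). Those of col-160 went from 170 and 183 CPM to 213 and 198 CPM (0.22, SE 0.06, adjusted p = 0.00973), and those of col-107 from 165 and 145.9 CPM to 183 and 172 CPM (0.20, SE 0.06, adjusted p = 0.0274). For col-160 the call was lost without wild-type library 1 (0.121), without mutant library 1 (0.0832) and with the replicate block (0.0507), and for col-107 without wild-type library 2 (0.375) or mutant library 1 (0.133). Levels of col-39 were 156 and 157 CPM in wild type and 183 and 168 CPM in the mutant (0.16, SE 0.06, adjusted p = 0.0432), and its call was lost in 6 alternatives, among them without wild-type library 1, wild-type library 2 or mutant library 1 (adjusted p up to 0.354). As in all 19 called rises, each of these genes had both mutant libraries above both wild-type libraries. A call with 2 libraries a genotype favours such a separation, so it adds nothing to the calls. The share of all tested genes with separate groups was not counted.

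At intermediate levels, col-10, reported to extend adult lifespan when raised in C. elegans, stood at 37.02 and 39.7 CPM in wild type and at 47.3 and 42.1 CPM in the mutant (log2 ratio 0.22, SE 0.07, adjusted p = 0.0262). Its neighbour col-144 stood at 20.8 and 22.1 CPM against 27.1 and 23.9 CPM (0.25, SE 0.08, adjusted p = 0.0268). Both calls were lost without wild-type library 1 (adjusted p = 0.135 and 0.110), without mutant library 1 (0.313 and 0.304) and with the replicate block (0.0859 and 0.0795). For col-34, with 13.7 and 13.3 CPM in wild type and 16.4 and 15.8 CPM in the mutant (0.25, SE 0.08, adjusted p = 0.0320), the call was lost without any one of the 4 libraries, with the block and with DESeq2 (adjusted p up to 0.152).

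One gene of this group, col-99, is not a typical cuticle collagen: it encodes a transmembrane collagen with a role in nervous system development. Its annotation has 18 exons, against a median of 2 among the members. It stood at 7.40 and 7.87 CPM in wild type and at 9.98 and 9.18 CPM in the mutant (log2 ratio 0.33, SE 0.10, adjusted p = 0.0225), and the call was lost in 5 alternatives, among them without wild-type library 1 or mutant library 1 (adjusted p up to 0.151).

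Among abundant members without a call, col-98 stood at 219 and 200 CPM in wild type and at 231 and 222 CPM in the mutant (log2 ratio 0.11, SE 0.06, adjusted p = 0.168), and was called higher from the deposited log2 values (0.0416) and under scaling by library totals (0.0401). The gene col-166 stood at 202 and 214 CPM against 238 and 210 CPM (0.11, SE 0.06, adjusted p = 0.232), with one mutant library inside the wild-type range, and was called without mutant library 2 (0.0353). Libraries of one genotype stood apart for col-180, at 80.3 and 56.2 CPM in wild type, and for col-167, at 24.8 and 35.2 CPM in the mutant against 38.5 and 40.7 CPM in wild type (-0.40, SE 0.19, adjusted p = 0.235).

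The falls were fewer among abundant genes but larger. The gene col-130 (WBGene00000704, chromosome IV) went from 13.01 and 14.6 CPM in wild type to 3.55 and 3.36 CPM in the mutant, a 3.98-fold fall (log2 ratio -1.99, SE 0.11, adjusted p = 1.45e-10). Among genes of at least 5 CPM, col-77 on chromosome II came next, with 7.87 and 10.7 CPM in wild type and 4.603 and 3.99 CPM in the mutant (-1.11, SE 0.14, adjusted p = 9.85e-06). In both cases the mutant libraries lay far below the wild-type libraries, and both calls held in all 14 alternatives.

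The steepest falls were in rarer genes, which are named here after their values were seen, except for col-12. Counts of col-145 (WBGene00000718, chromosome V) were 130 and 122 in the wild-type libraries and 34 and 46 in the mutant libraries, although the latter were deeper, or 2.44 and 2.44 CPM against 0.332 and 0.496 CPM. That was a 5.91-fold fall (log2 ratio -2.56, SE 0.24, adjusted p = 2.03e-07). Counts of col-146, also on chromosome V, were 70 and 70 in wild type and 27 and 19 in the mutant, a 5.74-fold fall in CPM (-2.52, SE 0.31, adjusted p = 4.08e-06). The gene col-12, a collagen of the late wave of each moulting cycle, stood at 2.38 and 2.38 CPM in wild type and at 0.712 and 0.657 CPM in the mutant (-1.79, SE 0.21, adjusted p = 2.54e-06). Its neighbour col-13, known as a near copy of col-12, had 2 and 3 counts in wild type and 11 and 2 in the mutant and was not tested, and how reads shared by such copies were counted is not given in the sources used here.

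The other falls were smaller. The gene col-97 on chromosome III went from 1.52 and 2.02 CPM to 0.761 and 0.722 CPM (log2 ratio -1.25, SE 0.23, adjusted p = 0.000449). On chromosome I, col-65 went from 3.72 and 4.16 CPM to 2.18 and 1.56 CPM (-1.07, SE 0.17, adjusted p = 0.000125), and on chromosome IV, col-101 went from 4.32 and 3.86 CPM to 2.87 and 2.46 CPM (-0.62, SE 0.15, adjusted p = 0.00397). The 6 rarer genes named so far held their calls in each of the 13 alternatives that tested them, since the filter at 5 CPM leaves them out. The remaining 4 calls were less stable. They were col-14 (-0.71, adjusted p = 0.0177, lost without mutant library 2 and with DESeq2), col-108 (-0.81, adjusted p = 0.0324, lost without mutant library 1 and with DESeq2), col-104 (-0.98, adjusted p = 0.0276, lost in 4 alternatives, among them without wild-type library 2 or mutant library 1) and col-159 (-0.60, adjusted p = 0.0348, lost in 4 alternatives, among them without wild-type library 2 or mutant library 2).

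**Figure D3:**
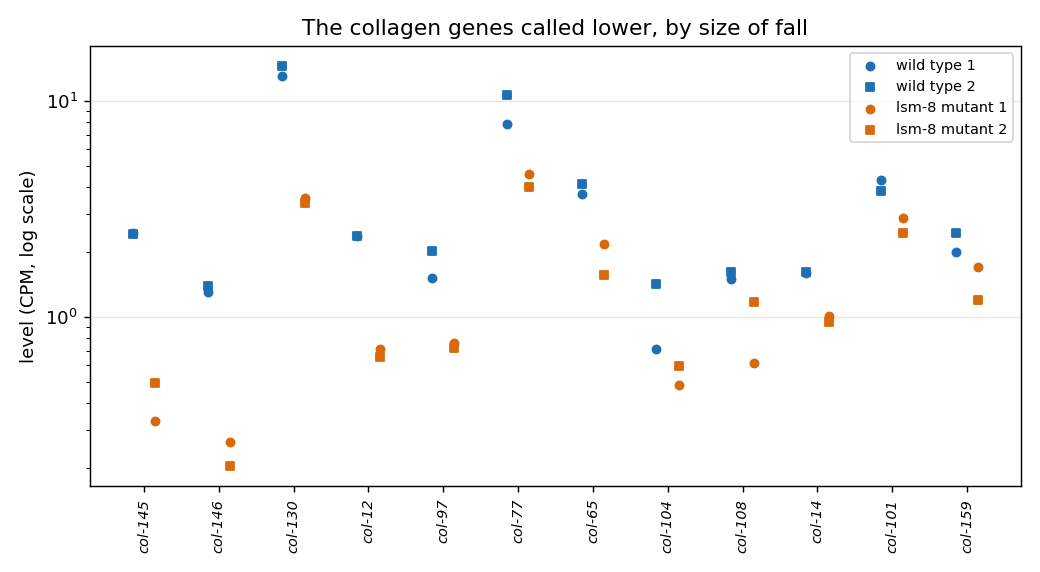
Levels in CPM (log axis) of the 12 collagen genes called lower in the mutant, ordered from the largest to the smallest log2 fold change, with 1 point for each library (blue, wild type; orange, lsm-8 mutant; circles, replicate 1; squares, replicate 2). In all 12 genes both orange points lie below both blue points, most widely for col-145, col-146, col-130 and col-12. A call with 2 libraries a genotype favours such a separation, so it adds nothing to the calls. The share of all tested genes with separate groups was not counted.

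Rises among rarer collagens, also named after their values were seen apart from sqt-3, were led by col-68 (WBGene00000644, chromosome II). It had 9 and 5 counts in the wild-type libraries and 83 and 84 counts in the mutant libraries, or 0.169 and 0.0999 CPM against 0.810 and 0.905 CPM (log2 ratio 2.65, SE 0.39, adjusted p = 4.52e-05). Both mutant libraries lay far above both wild-type libraries, and the call held in each of the 13 alternatives that tested it. Levels of col-93 on chromosome III went from 3.47 and 2.88 CPM to 5.02 and 5.50 CPM (0.72, SE 0.14, adjusted p = 0.000607), a call that held in all 14 alternatives. The genes col-133 and col-142 each rose by 0.61 (SE 0.17, adjusted p = 0.0124 and 0.0107). Without wild-type library 2 neither was called (0.0622 and 0.0599), and without mutant library 1 col-133 was not called (0.125). The last 3 rises were col-184, with 9 and 13 counts in wild type and 39 and 73 in the mutant, col-148, with 10 and 2 against 38 and 40, and col-121, with 5 and 3 against 24 and 26. No fold is given for col-148 and col-121, which had 3 or fewer counts in a library, and all 3 calls (adjusted p = 0.0243, 0.0206 and 0.0424) were lost without 1 or more of the libraries, up to adjusted p = 0.408, 0.199 and 0.225.

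The collagens with a name from genetics, which give body shape phenotypes when mutated, were all rare in these larvae. Of the 18, 16 were tested. At low levels few genes of any kind were called. Of all tested genes under 1 CPM, 3.81% were called higher and 3.27% lower, and 10.6% and 13.2% of those at 1 to 5 CPM. So the count of calls is not a result about the named genes, of which sqt-3 alone was called at an adjusted p under 0.05. This gene (chromosome V), a collagen of the embryonic and all later cuticles, had 19 and 35 counts in wild type and 123 and 115 in the mutant, or 0.357 and 0.700 CPM against 1.20 and 1.24 CPM. It rose 2.32-fold (log2 ratio 1.21, SE 0.29, adjusted p = 0.00414), although its wild-type libraries differed widely and the call was lost without wild-type library 1 (adjusted p = 0.0507). The gene dpy-17, whose product is known to act with SQT-3, stood at 0.620 and 0.780 CPM against 0.810 and 0.884 CPM (0.28, SE 0.27, adjusted p = 0.504).

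The annular furrow collagens stood at nearly the same level in both genotypes. Summed over dpy-2, dpy-3, dpy-7, dpy-8, dpy-9 and dpy-10, they reached 5.37 and 4.98 CPM in wild type and 5.29 and 5.39 CPM in the mutant. Of these genes, edgeR with its filter and limma voom tested 5, and edgeR without a filter and DESeq2 tested 6. Each of these fits called 0, with 0 at an unadjusted p under 0.05. Of all tested genes under 1 CPM, 3.81% were called higher and 3.27% lower, and 10.6% and 13.2% of those at 1 to 5 CPM. So 0 calls in so few furrow genes is not a result about them. The most abundant was dpy-2, at 1.67 and 1.30 CPM in wild type and 1.58 and 1.99 CPM in the mutant (log2 ratio 0.26, SE 0.21, adjusted p = 0.390). For dpy-8 the values were 1.07 and 1.08 CPM against 1.19 and 1.099 CPM (0.09, SE 0.23, adjusted p = 0.810), for dpy-10 they were 1.03 and 0.999 against 1.17 and 1.01 CPM (0.10, SE 0.24, adjusted p = 0.788), and for dpy-9 they were 1.13 and 0.959 against 0.800 and 0.862 CPM (-0.33, SE 0.25, adjusted p = 0.364). The values of dpy-7 overlapped between genotypes, at 0.375 and 0.580 CPM and at 0.468 and 0.356 CPM. With 3 to 8 counts in each library, dpy-3 did not pass the edgeR filter on low counts. At these depths a change of the size of the SEs, about 0.21 to 0.38 log2 units, was not detectable.

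The dumpy collagens dpy-5 and dpy-13, transcribed after the furrow group in each cycle, stood at 1.15 and 1.04 CPM against 0.965 and 0.819 CPM (log2 ratio -0.29, SE 0.24, adjusted p = 0.422) and at 0.263 and 0.160 CPM against 0.195 and 0.119 CPM (-0.42, SE 0.55, adjusted p = 0.626). The right-handed roller gene rol-6 had 3 and 9 counts in wild type and 15 and 20 in the mutant. The gene rol-8 stood at 1.03 and 0.879 CPM against 0.527 and 0.614 CPM, with both mutant libraries below, and missed the threshold (-0.75, SE 0.28, adjusted p = 0.0514). It was called with no filter (0.0498) and with the correction for gene length (0.0486). The remaining names of this kind, sqt-2 (17 and 20 counts against 26 and 16), dpy-4 (3 and 4 against 21 and 16) and sqt-1 (4 and 1 against 5 and 5), were near the limit of detection, and sqt-1 was not tested.

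Collagens known from other life stages were rare, and so were yolk protein genes of the adult. The adult collagen gene col-7 had 0 counts in all 4 libraries, which allows up to 0.0563 and 0.0600 CPM in wild type and 0.0293 and 0.0323 CPM in the mutant at 3 counts. The adult gene col-19 had 2 and 0 counts in wild type and 8 and 14 in the mutant. The strut collagens of the adult cuticle, bli-1 and bli-2, stood at 0.676 and 0.4997 CPM against 0.585 and 0.485 CPM, and at 0.169 and 0.240 CPM against 0.439 and 0.302 CPM, and neither was called (adjusted p = 0.802 and 0.179). The dauer-stage genes col-2 and col-40 had 4 and 1 against 21 and 11 counts, and 7 and 3 against 7 and 5 counts. The embryonic collagen gene dpy-14 varied within both genotypes, at 0.394 and 0.840 CPM in wild type and 0.468 and 1.15 CPM in the mutant. It was not called (adjusted p = 0.615), but was called without wild-type library 2 (0.0477) and without mutant library 1 (0.0455), and its sign turned without either of the others. The adult yolk genes vit-2, vit-5 and vit-6 summed to 1.30 and 1.06 CPM in wild type and 2.52 and 2.39 CPM in the mutant. The 2 that were tested, vit-2 and vit-6, were called higher. Of all tested genes, 3.81% of those under 1 CPM and 10.6% of those at 1 to 5 CPM were called higher.

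In all, 40 members were not tested. Of these, 5 (col-62, col-7, col-127, col-126 and col-3) had 0 counts in every library, and the largest count of the others was 21, or at most 0.216 CPM. The untested members were spread over the genome, with 10 each on chromosomes IV and X. Beyond the named ones, the 103 tested members without a call ran mostly below 1 CPM, where 70 of them lay.

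The collagen genes share a compact structure that the naming rule did not use. Their deposited widths had a median of 1016.5 bases, against 1244 over all tested genes, and 140 of 174 were between 900 and 1200 bases. In the WBcel235 annotation, whose build differs from that of the deposited tables and which served only for names, order and exons, the members had a median of 2 exons, against 6 for all tested genes, and 78 had exactly 2. In 11 members at least 20% of the exonic bases were shared with another annotated gene, dpy-10 among them, and 0 of these 11 were among the called genes. Of all tested members 14.2% were called higher and 8.96% lower, against 13.5% and 14.8% of all tested genes. How many of the 11 passed the filter on low counts was not counted, so the 0 is not a result about them.

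Members lay on all 6 chromosomes, with 44 on IV, 32 each on II and V, 30 on X, 23 on I and 13 on III. On chromosome V, 8 of 28 tested members were higher and 4 lower, and on chromosome IV, 6 of 34 were higher and 5 lower. On chromosome X, 1 of 20 was higher and 0 lower, and on chromosome I, 0 of 15 were higher and 1 was lower. Over all tested genes, chromosome IV, which carries lsm-8, had 21.8% higher and 9.07% lower, whereas chromosome V had 14.7% and 14.2%, chromosome X 12.9% and 15.2% and chromosome I 9.55% and 17.4%. The median log2 fold change of members on chromosome IV was 0.06, against 0.09 over all its tested genes. The differences between chromosomes were not tested.

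Many collagen genes are neighbours: 57 members formed 33 pairs that were adjacent or had 1 protein-coding gene between them. Neighbours often differed widely in level, by at least 10-fold in 10 of the 20 pairs with both genes tested. Both genes were called in 5 pairs, in opposite directions in 4 and in the same direction in 1. The opposite pairs count col-145 more than once, against each of its neighbours. Neighbouring pairs of other genes were not counted, so neither count can be read as a trait of collagen genes. On chromosome V, col-145 lies between col-144 and col-10 on the same strand. It fell with a log2 fold change of -2.56 while its neighbours rose by 0.25 and 0.22. Also on chromosome V, col-146 (-2.52) and col-147 (0.27) are separated by 1 gene and moved apart, as did col-159 (-0.60) and col-160 (0.22), whose annotated spans overlap. The pair that rose together was col-39 and col-80 on chromosome II, which lie in a row with col-79 and bli-1, both rare and not called. Sequence likeness between neighbours was not measured here, so reads shared between them cannot be told apart.

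**Figure D4:**
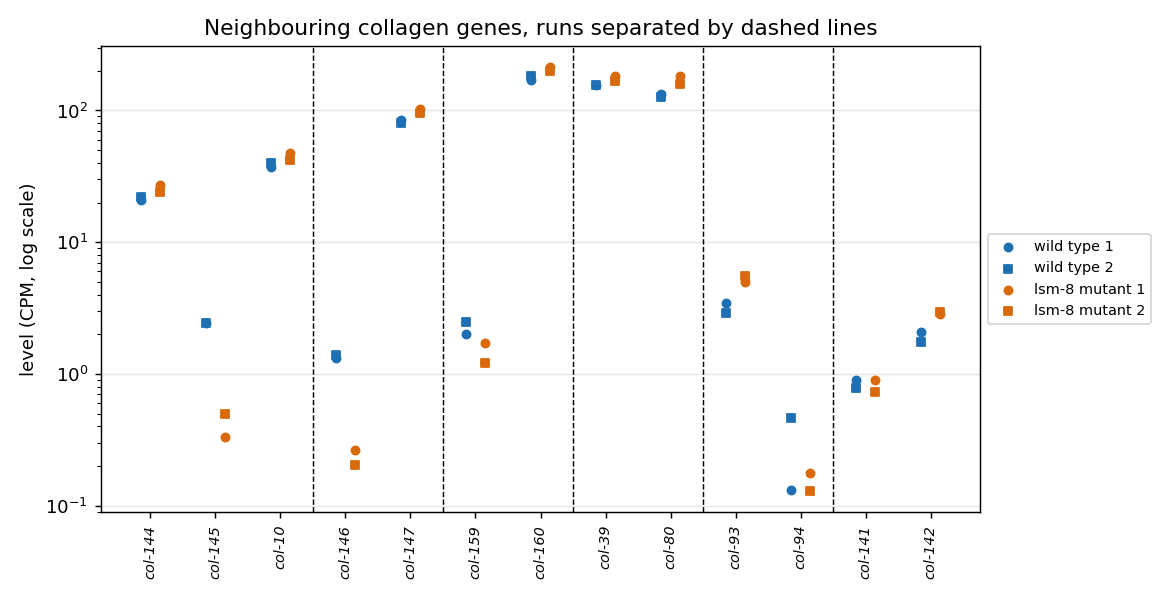
Levels in CPM (log axis) of neighbouring collagen genes in their order on the chromosome, in 6 runs with at least 1 called gene, separated by dashed lines, with 1 point for each library (blue, wild type; orange, lsm-8 mutant; circles, replicate 1; squares, replicate 2). Within the first 3 runs, the rare genes col-145, col-146 and col-159 fall in the mutant beside abundant neighbours that rise slightly.

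Genes that build collagen moved in both directions. Over all tested genes 13.5% were called higher and 14.8% lower, and 18.6% and 20.4% of those of at least 5 CPM. These shares apply to this list and to those below, none of which was tested as a set. Of 13 genes for folding and hydroxylation, 1 rose, 3 fell and 9 were not called. The prolyl 4-hydroxylase gene phy-2, whose enzyme stabilises collagen trimers, went from 35.8 ± 1.05 up to 51.7 ± 0.706 CPM (log2 ratio 0.53, SE 0.06, adjusted p = 3.79e-06). Its partner subunit gene dpy-18 stood at 68.5 and 65.8 CPM against 70.3 and 71.6 CPM and was not called (0.08, SE 0.06, adjusted p = 0.363). The disulfide isomerase genes pdi-3 (-0.25, SE 0.06) and pdi-6 (-0.28, SE 0.06) fell, and so did erp-44.1 (-0.17, SE 0.06), whose call was lost in 8 alternatives, each of the 4 left-out libraries among them. For secretion, 4 of 8 genes rose and 1 fell. Those that rose were the coat protein genes sec-23 (0.41, SE 0.06), sec-24.1 (0.21, SE 0.05) and sec-24.2 (0.44, SE 0.07) and the GTPase gene sar-1 (0.26, SE 0.07), all of the vesicles that leave the endoplasmic reticulum. The gene that fell was tmem-131 (-0.19, SE 0.06), which acts in procollagen recruitment. The calls of sec-24.1 without wild-type library 2, of sar-1 without wild-type library 1, and of tmem-131 without wild-type library 2 or mutant library 1 were lost (adjusted p = 0.0982, 0.0802, 0.0619 and 0.0752), and that of tmem-131 also under scaling by library totals (0.0656) and from the deposited log2 values (0.0679). With the correction for gene length sec-24.1 was not called either (0.270).

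Of 12 genes listed for processing and crosslinking, 11 were tested, 2 rose and 1 fell. The peroxidase gene mlt-7, which acts in cuticle crosslinking, went from 77.8 ± 2.31 up to 100.5 ± 2.86 CPM (log2 ratio 0.37, SE 0.06, adjusted p = 9.90e-05). The other listed gene that rose was phat-3 (0.62, SE 0.12), for which the sources used here show no role in collagen processing. The metalloprotease gene dpy-31, which trims the C-terminal end of procollagens such as SQT-3, fell from 163 ± 0.421 to 128 ± 1.38 CPM (-0.35, SE 0.06, adjusted p = 9.48e-05). The protease gene bli-4, which trims the N-terminal end, stood at 144.4 and 145.6 CPM against 152 and 157 CPM and was not called (0.09, SE 0.06, adjusted p = 0.241).

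Transcription factor genes of the epidermis and the moulting cycle stood higher, with 9 of 12 called higher, 0 lower and a median log2 fold change of 0.36, against -0.01 over all tested genes. The nuclear receptor gene nhr-85, which belongs to the cycling developmental timer, went from 11.6 ± 0.485 up to 27.9 ± 0.0593 CPM (log2 ratio 1.27, SE 0.08, adjusted p = 8.13e-10). The other rises were between 0.32 and 0.53, among them myrf-1 (0.53, SE 0.08), bed-3 (0.53, SE 0.11), nhr-25 (0.37, SE 0.08), elt-3 (0.36, SE 0.08) and lin-26 (0.32, SE 0.06). The calls of nhr-23, the receptor that drives moulting (0.43, SE 0.13), and blmp-1 (0.38, SE 0.08) were lost without mutant library 1 (adjusted p = 0.209 and 0.0518), and nhr-23 also with the replicate block (0.0503) and the length correction (0.0840). The wider list of epidermis and seam markers, which shares 7 genes with these, had 6 of 12 tested genes higher and 1 lower. It summed to 588 and 603 CPM in wild type and 597 and 586 CPM in the mutant. Most of that sum was ajm-1, the gene called lower, at 380 and 384 CPM against 332 and 332 CPM. The sum therefore mainly follows ajm-1 and does not describe the other listed genes. None of the list's genes in the table was at 0 in all libraries, and nhr-73 had 0 counts in 3 libraries and 2 in the other. Of the other tissue markers, 5 of 5 for body wall muscle were called higher (summed 10233 and 10208 CPM against 12177 and 12913 CPM), 3 of 4 for pharynx (3581 and 3544 against 4070 and 4401 CPM), 3 of 6 for neurons (348 and 342 against 382 and 364 CPM) and 2 of 6 for intestine, with 1 lower (7193 and 7219 against 7983 and 7621 CPM). Among the muscle genes, unc-54 stood at 4986 and 5064 CPM in wild type and 6182 and 6263 CPM in the mutant. The marker of the mutant strain holds an unc-54 3'UTR, so reads from it may be counted to unc-54, which was not tested. The germline markers, 0 of 3 tested called, summed to 93.1 and 88.9 against 89.3 and 88.1 CPM. The part of these factors and of tissue makeup in the collagen changes was not tested.

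In the BMP pathway, which sets body size in part through cuticle collagens, 5 of 10 genes rose and 3 fell. Among all tested genes of at least 5 CPM, 18.6% were called higher and 20.4% lower. The co-receptor gene sma-10 fell (log2 ratio -0.63, SE 0.06, adjusted p = 8.44e-08), as did the receptor genes sma-6 (-0.33, SE 0.07) and daf-4 (-0.23, SE 0.06). The glypican gene lon-2, a negative regulator, rose (0.50, SE 0.08, adjusted p = 0.000103), as did the Smad genes sma-2 and sma-4 (each 0.29, SE 0.08 and 0.06), sma-9 (0.19, SE 0.06) and lon-1 (0.23, SE 0.07). Without wild-type library 1 the calls of sma-2 and sma-9 were lost (adjusted p = 0.0720 and 0.207), without mutant library 1 those of sma-2 and lon-1 (0.0677 and 0.260), and without wild-type library 2 that of lon-1 (0.0539). The call of sma-9 was also lost with the block (0.0566) and the length correction (0.663).

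Among the cuticlins, which are other structural proteins of the cuticle, 0 of 8 tested genes rose and 2 fell. They were cut-3 and cut-5, both needed for the lateral ridges of the L1 cuticle, with log2 fold changes of -0.72 (SE 0.21, adjusted p = 0.0174) and -1.04 (SE 0.37, adjusted p = 0.0428). The call of cut-3 was lost without mutant library 1 (0.160) and with DESeq2 (0.0681), and that of cut-5 in 8 alternatives, each of the 4 left-out libraries among them (up to 0.237). Of 4 collagens outside the cuticle, cle-1 of type XVIII rose (0.21, SE 0.06, adjusted p = 0.0158), a call that did not hold without wild-type library 1 or mutant library 2 (0.120 and 0.0688), with the length correction (0.402) and with the block. The type IV genes emb-9 (0.01, SE 0.07, adjusted p = 0.931) and let-2 (-0.03, SE 0.07, adjusted p = 0.814) were not called.

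Genes tied to the osmotic, antimicrobial and detoxification responses that follow loss of furrow collagens were called in both directions. All 8 tested were called, 4 higher and 4 lower, against 18.6% higher and 20.4% lower among all tested genes of at least 5 CPM. The list is short and was not tested as a set. The glycerol synthesis gene gpdh-1 rose (log2 ratio 0.57, SE 0.09, adjusted p = 0.000112), as did ptr-23 (0.55, SE 0.06), osm-11 (0.24, SE 0.06) and the antimicrobial peptide gene cnc-2, from 0.278 ± 0.138 to 0.925 ± 0.246 CPM. The inositol transporter gene hmit-1.1 (-0.74, SE 0.06, adjusted p = 2.56e-08), the antimicrobial peptide genes nlp-29 (-0.61, SE 0.08, adjusted p = 1.98e-05) and nlp-31 (-0.27, SE 0.10, adjusted p = 0.0479) and the glutathione transferase gene gst-4 (-0.18, SE 0.06, adjusted p = 0.0378) fell. The call of osm-11 was lost without wild-type library 1 (adjusted p = 0.221). Those of nlp-31 and gst-4 were lost in 10 and 8 of the 14 alternatives, each without wild-type library 1 (0.642 and 0.137) and without mutant library 1 (0.0683 and 0.312).

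**Figure D5:**
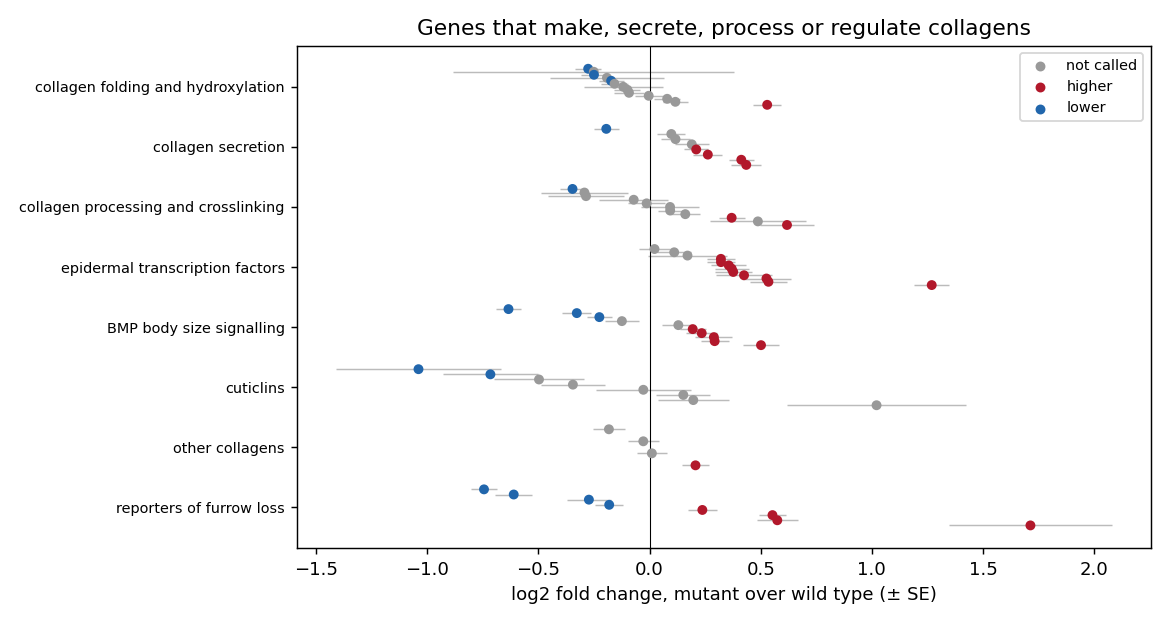
Log2 fold change (mutant over wild type, bars show SE) of each tested gene in 8 lists of genes taken to fold, secrete, process or regulate collagens, or to belong with them (red, called higher; blue, called lower; grey, not called). The transcription factor list holds 9 red points and no blue ones, whereas the other lists with more than 2 called genes hold both colours.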

How the data were processed

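The authors deposited a raw count table with 1 row per gene and a table of log2 values. In the latter each value equals log2 of the scaled count plus 8, within 5.33e-14. The submitters' processing notes list Bowtie, edgeR 3.24.0 and ce10, with no roles, and how reads shared by similar genes were counted is not given in the sources used here. Reads were 50 bases, single-end, from a stranded total RNA kit, per the labels' protocols.

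The deposited counts of all genes were tested with edgeR 4.0.16 (R 4.3.3) by the quasi-likelihood F-test with TMM scaling and filterByExpr, and p-values were adjusted over all 16771 tested genes by the Benjamini-Hochberg method. The SE was derived from the F statistic. CPM used the TMM library size, and RPKM divided it by the deposited gene width. Alternatives were DESeq2 1.42.0, limma 3.58.1 (voom, and on the deposited log2 values), other scalings and filters, a correction for gene length, the replicate number as a block, and each library left out. A fit that leaves 1 library in a genotype assumes that it varies like the others. The procedure was tested on simulated data.

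The members, gene lists and tests were chosen with earlier results of these data known. Named genes were the members named dpy, rol, sqt or bli, the 10 largest rises and falls among called members of at least 5 CPM, the 8 highest members per length, stage-marked members, called genes of the pathway lists and lsm-8. Other members, the rarer called genes among them, were named after their values were seen. Protein identity between members was not used here. Of 19182 named rows, symbols came from WBcel235, in which 19870 rows were placed.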

Additional observations from a re-analysis of the deposited data

How the results depend on the processing

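With 2 libraries a genotype and most members below 1 CPM, small changes of rare collagens were not detectable. The median log2 fold change of the tested members, 0.0682, was 0.1036 with upper quartile scaling, 0.1191 with library totals, 0.174 with the filter of at least 5 CPM in 2 libraries, 0.0376 with limma voom, and between 0.0050 and 0.1048 when 1 library was left out. The 5 CPM filter kept 25 members, of which 12 were called higher and 2 lower, by its construction. With the replicate block, 11 members were called higher, 5 of them among those of at least 5 CPM (an alternative chosen after seeing the data), and 3655 genes were called against 4737. Over the tested genes, the deviations of the 2 libraries numbered 1 from their genotype means did not go together (r = -0.0361). With 2 libraries a genotype, those numbered 2 deviate by the same amounts with opposite sign, so this is 1 comparison. The numbers were not taken as pairs. With 1 library left out, 12 to 16 members were called higher and 11 to 14 lower, and 4 to 11 of those of at least 5 CPM were higher. The difference in collagen share stayed between 0.0199 and 0.0469 percentage points with 1 library left out and was 0.0326 without col-125. Of the 19 rises, 5 were called in every alternative with a value, and of the 12 falls, 8. The log2 fold change of col-125 was 0.0142 with library totals, 0.0251 with the deposited log2 values, and -0.2349 to 0.1827 with 1 library left out. The signs of 4 further uncalled members turned in such fits: dpy-10 ranged from -0.0046 to 0.1999, dpy-14 from -0.3925 to 1.0197, bli-1 from -0.3395 to 0.1004 and dpy-7 from -0.4878 to 0.1309. The cause was not tested.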
